A study of Rattus norvegicus with 70 samples.

Results

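The 10 genes described here encode enzymes that make triglyceride, the storage fat of adipocytes, or that supply its glycerol backbone: Gpam, Agpat2, Agpat3, Lpin1, Lpin2, Dgat1, Dgat2, Gk, Pck1 and Gpd1. They were chosen by name, matched through their NCBI gene numbers to rat symbols, and found in each of 6 deposited count tables, as 10 of 15319 genes. All 10 passed the expression filter in every comparison. RNA-seq libraries were made from 3 fat depots of adolescent rats of the outbred Sprague-Dawley stock, namely brown fat (BAT), fat under the skin (SAT) and visceral fat (VAT). Library titles carry 24 numbers in all, and the labels do not say that a number is the same rat in every depot. A rat named below therefore stands for 1 library of 1 depot. The series asks how inhaled PCB 52, a chlorinated biphenyl of indoor air, alters gene expression in these depots.

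PCB 52 groups breathed air drawn over beads coated with the compound through a nose-only system, 4 h a day for 28 days, starting at an age of 39 days for males and 42 days for females. Sham groups were assigned at random alongside them and are described no further in the sources used here. All rats came from 1 supplier, had the same stock diet without restriction and were trained in the apparatus, and no genetic change was made. The 12 groups were male PCB 52, male sham, female PCB 52 and female sham rats in each of BAT, SAT and VAT. Each group held 6 libraries, except male VAT PCB 52 with 5 and female SAT sham with 5. Sex and age at the start cannot be told apart, and neither can sex or depot and whatever differed between the tables, because each table holds 1 sex and 1 depot.

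Fatty acids are stored in fat cells by joining them, as acyl-CoA, to glycerol 3-phosphate. Gpd1 makes this backbone from the glycolytic intermediate dihydroxyacetone phosphate, Gk makes it from glycerol, and Pck1 feeds it from pyruvate and amino acids through glyceroneogenesis. Gpam adds the acyl chain that makes lysophosphatidic acid, Agpat enzymes add the next to make phosphatidic acid, lipins remove the phosphate to leave diacylglycerol, and Dgat1 or Dgat2 adds the last chain. White adipocytes of rodents are known for a low Gk level, and brown adipocytes for a high one.

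Total counts ran from 4604116 to 7813842 in BAT, 6506450 to 8381507 in SAT and 6470081 to 9707132 in VAT. Every member had at least 14 counts in every library used. Labelled depots were checked with marker genes. Summed CPM (counts scaled by the library total) of 5 brown adipocyte markers ran from 195.9 to 13282 in BAT, with a median of 8007, and had medians of 33.2 in SAT and 56.4 in VAT. Muscle genes reached 42928 CPM in BAT, and milk and epithelial genes ran from 10.1 to 241997 CPM in SAT. Several libraries stood apart. Female BAT PCB 52 rat 24 had the lowest brown and the highest muscle sum of BAT, and male SAT PCB 52 rat 19 had the lowest adipocyte marker sum of SAT. Female SAT sham rat 8 had 0 counts on 666 of 10420 expressed genes. Female VAT sham rats 4 and 8 held Ucp1, the uncoupling protein of brown adipocytes, and male VAT sham rat 11 and PCB 52 rat 23 held seminal vesicle genes. Male VAT PCB 52 rat 13 had 0 counts on 265 of 272 expressed X-linked genes and 246 of 371 expressed genes of chromosome 9, where Gk and Lpin2 lie. It was left out of all main fits and of the values below, save where it is named. Nothing in the labels says that libraries of a group came from separate litters or cages, so p-values measure only the spread between these libraries.

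Results turn most on Gk, which separated the depots, and on Lpin1 and Pck1, which separated the sexes in VAT, so their promoters are shown. Each is 250 bases before to 50 bases after the gene's start, 5′ to 3′ on the gene's strand, from RefSeq on build GRCr8, and capitals mark every match, on either strand, to the motifs named after them. RefSeq promoters were matched for 7 of the 10 genes.
Gk (chrX:54189682-54189981, minus strand): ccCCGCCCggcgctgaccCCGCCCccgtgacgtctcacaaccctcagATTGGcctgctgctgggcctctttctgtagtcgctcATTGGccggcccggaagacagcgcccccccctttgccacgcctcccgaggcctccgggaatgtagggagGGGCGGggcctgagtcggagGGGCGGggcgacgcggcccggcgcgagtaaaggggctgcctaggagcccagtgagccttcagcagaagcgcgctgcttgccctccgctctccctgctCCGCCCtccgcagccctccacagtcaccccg
Pck1 (chr3:182348322-182348621, plus strand): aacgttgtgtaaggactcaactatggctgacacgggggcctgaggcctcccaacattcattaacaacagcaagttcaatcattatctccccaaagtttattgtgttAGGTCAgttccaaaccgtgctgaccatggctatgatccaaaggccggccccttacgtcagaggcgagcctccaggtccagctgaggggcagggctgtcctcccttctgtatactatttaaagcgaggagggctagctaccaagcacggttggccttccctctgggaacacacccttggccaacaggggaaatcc
Lpin1 (chr6:45108893-45109192, minus strand): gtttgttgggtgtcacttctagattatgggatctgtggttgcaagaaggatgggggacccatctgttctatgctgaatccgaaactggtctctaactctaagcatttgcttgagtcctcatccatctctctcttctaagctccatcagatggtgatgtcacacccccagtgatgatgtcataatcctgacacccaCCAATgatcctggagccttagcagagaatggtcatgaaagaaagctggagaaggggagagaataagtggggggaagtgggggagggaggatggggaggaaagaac

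The letters searched were AGGTCA for the nuclear receptor half-site, TGACGTCA for the CRE, CACGTG for the E-box, CCAAT for the CCAAT box, TATAAA for the TATA box and GGGCGG for the GC box, and no matches overlapped in these 3 windows. In the Gk window 2 CCAAT boxes and 5 GC boxes were found, and 72% of its bases are G or C, against a median of 51.7% over 33469 rat promoters. The Pck1 window holds 1 nuclear receptor half-site, from base -144 to -139 counted from the gene's start, a motif found in 16.2% of all promoters. The Lpin1 window holds 1 CCAAT box, from -55 to -51, a motif found in 37.5% of promoters. GC boxes were found in 33.1% of promoters. No exact match to the CRE, E-box or TATA box letters was found in the 7 windows, which says nothing of the factors themselves. Near matches were not searched for, so an element that differs from these letters by 1 base would be missed.

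In sham rats, the genes of triglyceride synthesis were higher in BAT than in SAT. Between BAT and SAT, 9 of 10 were higher in BAT of males and 10 of 10 in BAT of females (edgeR's quasi-likelihood test, Benjamini-Hochberg adjusted p under 0.05 over all genes). Of all genes tested, 28% were higher in BAT in males and 20.3% in females. The 10 genes together took 1.67% to 2.14% (median 1.86%) of all counts in male BAT, 0.159% to 0.787% (median 0.64%) in male SAT and 0.747% to 1.22% (median 0.902%) in male VAT. In females they took 1.67% to 2.5% (median 1.96%) in BAT, 0.0922% to 0.281% (median 0.211%) in SAT and 1.39% to 2.24% (median 1.56%) in VAT. Gpd1 and Pck1 weighed most in the BAT shares, with means of 9051 and 4831 CPM in male sham BAT, where Lpin2 had 134 CPM. In bulk tissue, fewer cells of a type and less RNA per cell cannot be told apart.

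**Figure D1:**
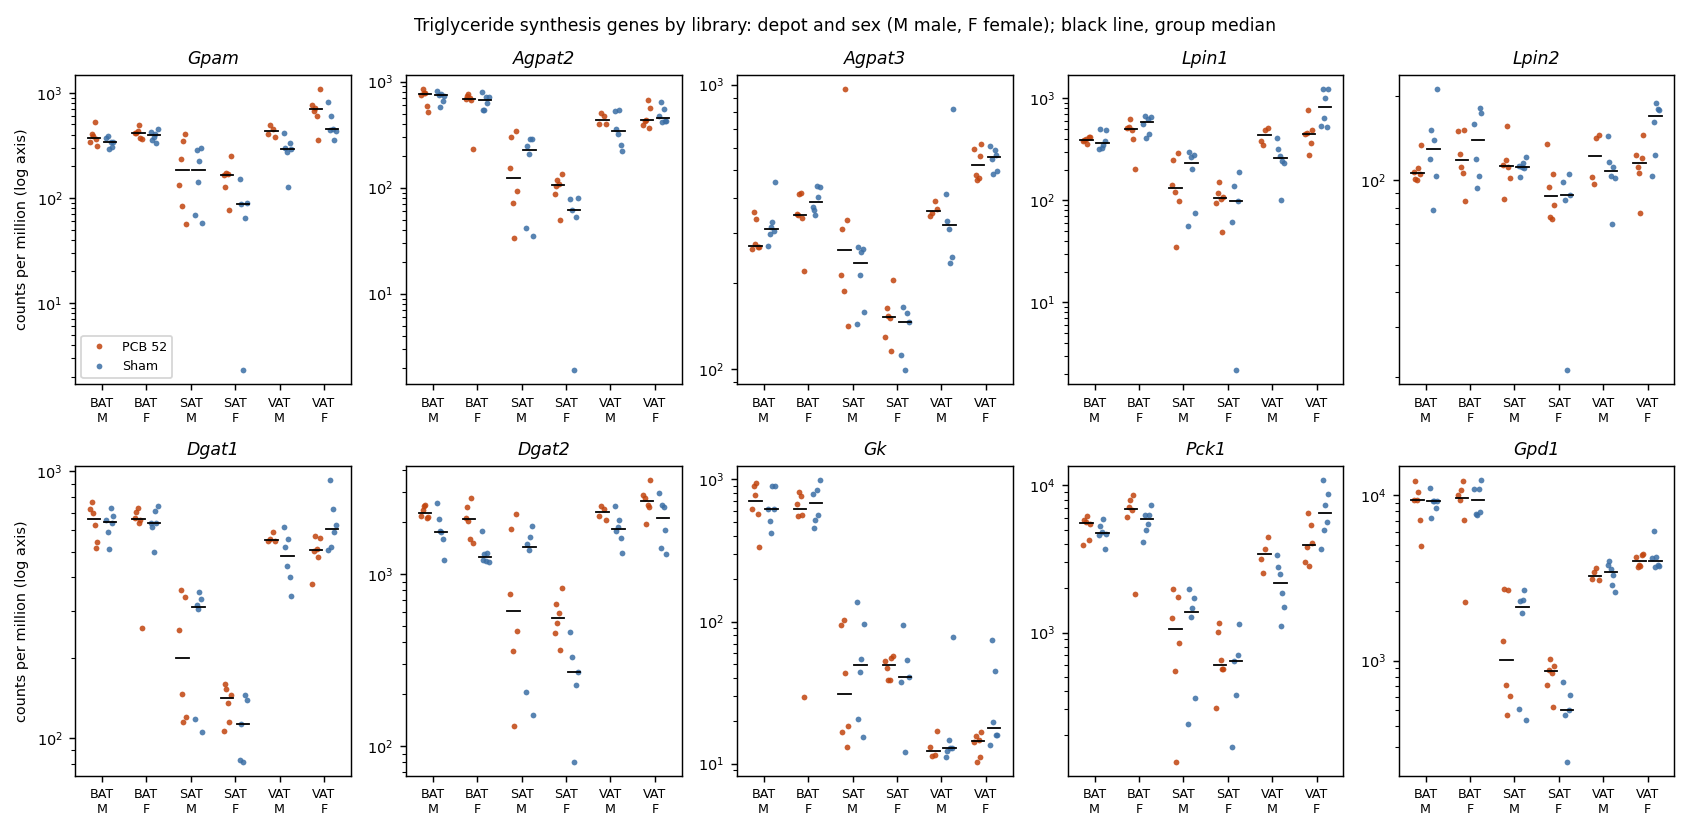
CPM of the 10 genes in 69 libraries on log axes, each point 1 library, PCB 52 in orange left of sham in blue, with group medians as black lines. Gk sits between 336 and 991 CPM in BAT, apart from 1 female library at 29.3 CPM, and under 140 CPM in every SAT and VAT library.

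Glycerol kinase, Gk, marked BAT. In male sham rats it was at 423 to 899.8 CPM (median 621) in BAT, 15.5 to 138 CPM (median 49.1) in SAT and 11.2 to 78.4 CPM (median 12.9) in VAT. In female sham rats it was at 452 to 991 CPM (median 677) in BAT, at 37.6, 94.5, 12.0, 53.5 and 40.5 CPM in SAT and at 13.4 to 74.3 CPM (median 17.8) in VAT. No BAT library of a sham rat overlapped any from SAT or VAT. The log2 fold change of BAT over VAT was 5.23 (SE 0.649, adjusted p = 3.67e-06) in males and 4.67 (SE 0.513, adjusted p = 9.64e-06) in females. Over SAT it was 3.60 (adjusted p = 8.33e-05) in males and 4.20 (adjusted p = 8.61e-06) in females. Gk is also the 1 member that was higher in SAT than in VAT, by 1.63 in males (adjusted p = 0.0444), while the value in females was 0.47 (adjusted p = 0.451). VAT levels of Gk in sham rats stood near 11 to 20 CPM, except in male rat 11 at 78.4 and female rats 4 and 8 at 74.3 and 44.6 CPM. Ucp1 was at 338 and 229.5 CPM in those female libraries and at 0 in male rat 11, where the seminal vesicle genes Svs4 and Svs5 summed to 142 CPM. Their part in the Gk values was not tested. Without those libraries, and in females also without SAT rat 8, which had the lowest Gk of its group, the log2 fold change of SAT over VAT was 2.47 in males (adjusted p = 0.00246) and 1.59 in females (adjusted p = 0.0016). With every library in, the male call held in 4 of the 18 fits that leave 1 out, those without SAT rat 3, 5 or 9 or VAT rat 11.

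Gpd1, the dehydrogenase that draws glycerol 3-phosphate from glycolysis, also ran highest in BAT. It was at 7246 to 11052 CPM (median 9195) in male BAT, 435 to 2661 CPM (median 2107) in male SAT and 2579 to 4015 CPM (median 3442) in male VAT. In females it was at 7622 to 12353 CPM (median 9379) in BAT, at 738, 467, 245, 505 and 624 CPM in SAT and at 3656 to 6061 CPM (median 3996) in VAT. BAT stood above VAT without overlap in both sexes, by 1.83 (SE 0.358, adjusted p = 0.000391) in males and 1.33 (SE 0.231, adjusted p = 0.000465) in females. Against SAT, the log2 fold change of BAT was 2.69 in males and 4.49 in females (adjusted p = 1.02e-05 and 1.05e-08).

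Pck1, the carboxykinase of glyceroneogenesis, stood highest in BAT in males but not in females. Male BAT held 3717 to 5899 CPM (median 4750.3), above male SAT at 239 to 1980.3 CPM (median 1371) and male VAT at 1116 to 3391 CPM (median 2168), with no overlap. Female BAT held 4099 to 7326 CPM (median 5893), within the range of female VAT at 3703 to 10903 CPM (median 6498). Female SAT held 167, 641, 376, 708 and 1144 CPM. The log2 fold change of BAT over VAT was 1.54 in males (SE 0.404, adjusted p = 0.00424) and -0.10 in females (SE 0.36, adjusted p = 0.877). Whether these depot differences themselves differ between the sexes was not tested.

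Gpam, the mitochondrial glycerol-3-phosphate acyltransferase that takes the first acylation step, was at 289 to 384 CPM (median 339) in male BAT, 58.2 to 298 CPM (median 184) in male SAT and 128 to 414 CPM (median 293) in male VAT. In females it was at 336 to 450.3 CPM (median 395) in BAT, at 150.4, 87.5, 2.30, 64.5 and 88.8 CPM in SAT and at 358 to 823 CPM (median 449) in VAT. BAT was above SAT by 1.18 in males and 2.71 in females (adjusted p = 0.00579 and 0.00039). BAT and VAT did not pass, at 0.63 (adjusted p = 0.116) in males and -0.23 (adjusted p = 0.764) in females.

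The Agpat enzymes make phosphatidic acid. Agpat2, the isoform whose human gene is mutated in a congenital lipodystrophy, was at 572 to 809 CPM (median 742) in male BAT, 35.3 to 290.2 CPM (median 228) in male SAT and 224 to 546 CPM (median 340.0) in male VAT, and BAT was higher than both. In females it was at 536 to 793 CPM (median 670.3) in BAT, 78.7, 62.1, 1.89, 52.4 and 79.5 CPM in SAT and 414 to 646 CPM (median 449) in VAT. Its log2 fold change of BAT over VAT was 1.31 in males (adjusted p = 0.0152) and 0.60 in females (adjusted p = 0.323). Agpat3 was at 347 to 440.1 CPM (median 388) in female BAT, 112, 165, 99.0, 157 and 147 CPM in female SAT and 483 to 609 CPM (median 556) in female VAT. The range of Agpat3 in BAT lay wholly below that in VAT in females, but the log2 fold change of -0.30 did not pass (adjusted p = 0.178). Male levels were 272 to 454 CPM (median 311) in BAT, 144 to 269 CPM (median 237) in SAT and 235 to 818 CPM (median 322) in VAT, and BAT was above SAT by 0.84 (adjusted p = 0.00819).

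Lpin1 and Lpin2 encode lipins, the phosphatases that make diacylglycerol. Lpin1 was at 318 to 501 CPM (median 367) in male BAT, 56.3 to 296 CPM (median 234) in male SAT and 102 to 412 CPM (median 259.9) in male VAT. Female levels were 414 to 680.1 CPM (median 591) in BAT, 61.3, 139.9, 2.16, 98.0 and 191 CPM in SAT and 520.4 to 1249 CPM (median 825) in VAT. Lpin1 in BAT was above SAT by 1.26 in males and 2.91 in females (adjusted p = 0.0058 and 0.000663). In males BAT was also above VAT by 0.97 (adjusted p = 0.0283), and in females the value was -0.46 (adjusted p = 0.564). Lpin2 was at 78.4 to 212 CPM in male BAT, 103 to 121 CPM in male SAT and 69.9 to 144 CPM in male VAT, with overlap throughout. Its BAT over SAT log2 fold change was 0.47 in males (adjusted p = 0.0385), and this call held in 5 of the 18 fits without 1 library and was lost, at 0.07, with scaling by total counts. In females the value was 1.11 (adjusted p = 0.00128).

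The final step is carried out by Dgat1 and Dgat2, unrelated proteins with the same reaction. Dgat1 was at 511 to 725 CPM (median 648) in male BAT, 105 to 352 CPM (median 309) in male SAT and 339 to 619.6 CPM (median 480.2) in male VAT, and all 3 male contrasts passed, with -0.79 for SAT over VAT (adjusted p = 0.0369) and 0.78 for BAT over VAT (adjusted p = 0.0191). Leaving out 1 library at a time gave 0 to 4 members for SAT over VAT in males, so that Dgat1 call was lost in at least 1 fit. Without male VAT rat 11, BAT over VAT passed neither for Dgat1 (adjusted p = 0.0629) nor for Lpin1 (adjusted p = 0.07). Dgat2 was at 1209 to 2594 CPM (median 1759.9) in male BAT, 151 to 1897 CPM (median 1432) in male SAT and 1315 to 2475 CPM (median 1827) in male VAT, which overlap. It was the 1 member of the 10 whose BAT over SAT difference did not pass in males, at 0.97 (SE 0.456, adjusted p = 0.0789). Female SAT held 461, 329, 80.9, 225 and 267 CPM of Dgat2, below every library of female BAT at 1164 to 1782 CPM (median 1253) and of female VAT at 1307 to 2958 CPM (median 2122). The log2 fold change of BAT over SAT in females was 2.60 (SE 0.297, adjusted p = 2.11e-06).

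Counted over the list, 7 of 10 members were higher in BAT than VAT in males, against 26.5% of all genes tested, and 2 of 10 in females, against 14.3%. With scaling by total counts, the male count was 4, and the median of all genes was -0.42, against -0.03 with TMM scaling. The median log2 fold change of BAT over VAT was 0.87 for the members and -0.03 for all genes in males, and -0.04 and -0.07 in females. For BAT over SAT it was 1.41 and -0.04 in males, and 2.81 and -0.14 in females. SAT was below VAT for 1 of 10 members in males, Dgat1, against 10.6% of all genes, and for 9 of 10 in females, against 16.5%. The female exception was Gk. The median of SAT over VAT was -0.64 for the members and -0.01 for all genes in males, and -3.00 and 0.10 in females. Summed levels of 7 adipocyte markers, all detected, ran from 10611 to 15338 CPM in male BAT, 2459.9 to 22622 CPM in male SAT and 20456 to 38048 CPM in male VAT of sham rats. In females they ran from 9931 to 22886 CPM in BAT, 4017 to 40528 CPM in SAT and 29683 to 40135 CPM in VAT. These sums were thus higher in every sham VAT library than in any sham BAT library of the same sex. Their part in the depot differences was not tested.

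**Figure D2:**
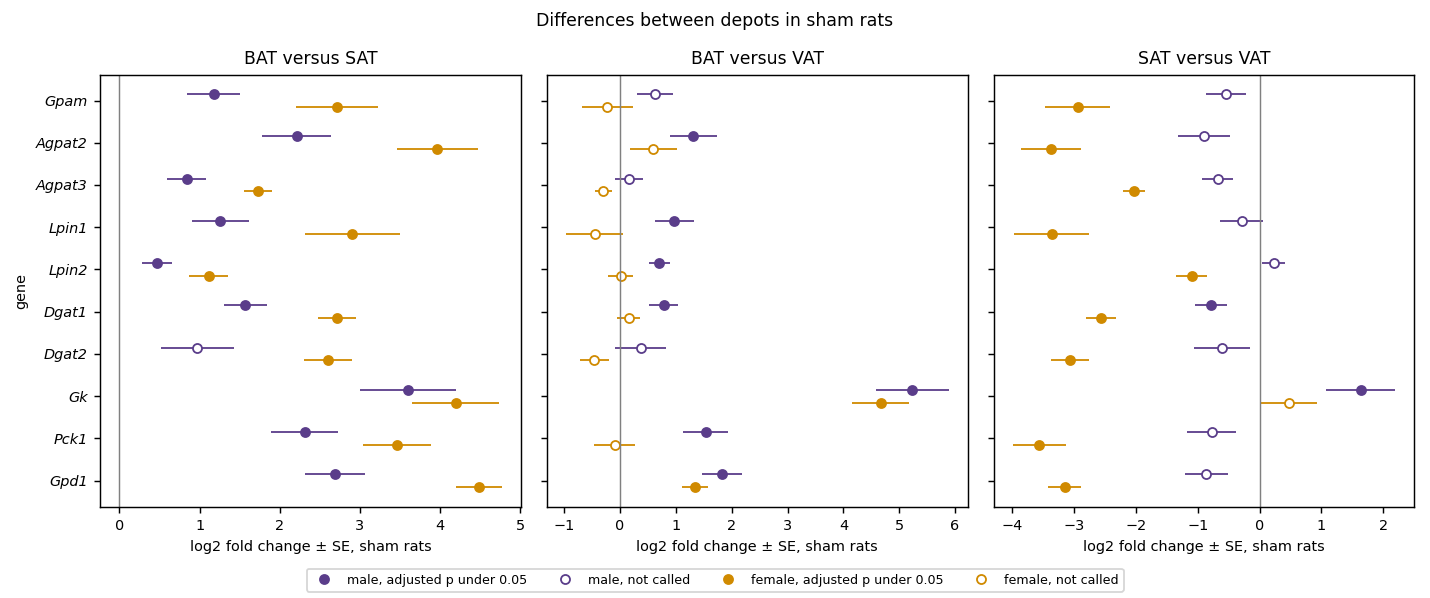
Log2 fold changes with standard errors of the 10 genes between depots of sham rats, males above females in each row, with filled points for adjusted p under 0.05. All points lie right of 0 for BAT over SAT, and Gk stands at 5.23 in males and 4.67 in females for BAT over VAT.

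Other genes of the pathway were read as 3 lists. They were 16 measured genes of the same or linked steps, 8 proteins that act with these enzymes or coat the droplet, and 7 transcriptional regulators. The first list is called other enzymes here, although it includes the channel gene Aqp7. Between BAT and SAT, where 27.3% of all genes were lower in BAT in each sex beside the higher ones given above, 7 of 14 tested other enzymes were higher in BAT and 2 lower in males, and 7 higher and 1 lower in females. All partners that passed were higher in BAT, 6 of 8 in each sex, and so were 4 of 7 regulators in males and 5 of 7 in females. Ppargc1a, a coactivator of brown adipocyte genes, differed by 6.67 (SE 0.393, adjusted p = 3.84e-10) in males. Gpd2, the mitochondrial partner of Gpd1 in the glycerol phosphate shuttle, differed by 5.30 (SE 0.34, adjusted p = 9.7e-10). Aqp7, the glycerol channel of adipocytes, differed by 3.38 (SE 0.213, adjusted p = 1.05e-08) and Pparg, the master regulator of fat cell formation, by 2.78 (SE 0.221, adjusted p = 5.47e-08), both in females.

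Against VAT, BAT had 7 other enzymes higher and 1 lower of 14 in males, and 6 higher and 1 lower in females. Of 8 partners, 4 were higher in males, and 3 were higher and 1 lower in females. Of 7 regulators, 1 was higher in males, and 1 was higher and 1 lower in females. In that contrast 26.5% of all genes were higher and 23.3% lower in males, and 14.3% higher and 11.2% lower in females. Acsl5, an acyl-CoA synthetase, was higher in BAT by 2.70 (SE 0.25, adjusted p = 8.98e-08) in males and 3.31 (SE 0.384, adjusted p = 1.63e-05) in females. The lower one in females was Gpat3, the endoplasmic reticulum enzyme of the same step as Gpam, at -1.92 (SE 0.296, adjusted p = 0.000177). SAT of females was below VAT for 4 of 14 other enzymes, 4 of 8 partners and 6 of 7 regulators, and above it for 1 enzyme and 1 partner, where 16.5% of all genes were lower and 23.2% higher. Among the lower ones was Cebpa, a transcription factor of mature adipocytes, at -3.03 (SE 0.212, adjusted p = 3.82e-08). In males 2 of 8 partners and 1 of 7 regulators were lower in SAT and 1 of 14 enzymes and 1 of 8 partners higher, where 10.6% of all genes were lower and 12.4% higher. The lower ones included Cidec, a droplet fusion protein, at -1.51 (SE 0.371, adjusted p = 0.00917). Plin1 and Cidec stand in the adipocyte marker list and Cidea and Ppargc1a in the brown one, so these lists are not separate measurements.

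Levels in male and female sham rats differed in both white depots, with opposite signs. In VAT, 7 of 10 members were lower in males and none higher, where 9.69% of all genes tested were lower. In SAT, 4 of 10 were higher in males and none lower, where 2.39% of all genes were higher and 5.63% lower, 8.02% in all. At an unadjusted p under 0.05, 7 members and 26.3% of genes passed in SAT. In BAT no member passed in edgeR, with 2 at an unadjusted p under 0.05, as were 6.23% of genes, and 0 in DESeq2, and 0.0725% of all genes passed in edgeR. Whether the sex differences themselves differ between depots was not tested.

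In VAT the widest sex differences of the 10 genes were those of Lpin1 and Pck1. Lpin1 was at 102 to 412 CPM (median 259.9) in male VAT and 520.4 to 1249 CPM (median 825) in female VAT, and the groups did not overlap. Its log2 fold change of male over female was -1.83 (SE 0.297, adjusted p = 0.000223). Pck1 was at 1116 to 3391 CPM (median 2168) in male VAT and 3703 to 10903 CPM (median 6498) in female VAT, again without overlap, for -1.77 (SE 0.29, adjusted p = 0.000238). Both genes passed in each of the 22 fits without 1 library, and at -1.51 and -1.38 without all the libraries that stood apart (adjusted p = 0.00652 and 0.0057). Gpam was at 128 to 414 CPM (median 293) in male VAT and 358 to 823 CPM (median 449) in female VAT, which overlap, for a log2 fold change of -0.97 (adjusted p = 0.0113).

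The other calls in VAT were smaller. On the log2 scale, Lpin2 was at -0.63 (adjusted p = 0.0107), Agpat3 at -0.60 (adjusted p = 0.0381), Dgat1 at -0.53 (adjusted p = 0.036) and Gpd1 at -0.46 (adjusted p = 0.0345). Without the libraries that stood apart, Lpin2, Dgat1 and Gpd1 no longer passed and 4 members were left, the same number as without female rat 4 or without male rat 9. Dgat2, the enzyme of the last step, was at 1315 to 2475 CPM (median 1827) in male VAT and 1307 to 2958 CPM (median 2122) in female VAT, at -0.25 (adjusted p = 0.409). Of the other pathway genes, 4 of 13 enzymes, 1 of 7 partners and 2 of 7 regulators were lower in males and none higher, where 9.69% of all genes were lower and 11.1% higher. Ppargc1a had the largest of these differences, -2.46 (SE 0.429, adjusted p = 0.000431), followed by Acsl1, an acyl-CoA synthetase of fat storage and oxidation, at -0.77 (SE 0.172, adjusted p = 0.0031). Brown adipocyte markers summed to 41.5 to 105 CPM in male VAT and 49.1 to 566 CPM in female VAT, and fibroblast markers to 6820.0 to 16321 CPM in male and 3482 to 10987 CPM in female VAT. Adipocyte markers summed to 20456 to 38048 CPM in male and 29683 to 40135 CPM in female VAT. Msln, the 1 mesothelial marker of 3 in the tables, was at 4.04 to 289 CPM in males and 17.8 to 377 CPM in females. The part of these in the sex differences was not tested.

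SAT libraries of male rats lay far apart from each other, and most members split them in a similar way. Dgat2 was at 1480.4, 1383, 1638 and 1897 CPM in male sham rats 3, 5, 7 and 9 and at 205 and 151 CPM in rats 1 and 11. Female sham rats 2, 6, 8, 10 and 12 had 461, 329, 80.9, 225 and 267 CPM. The 2 low male libraries thus lay within the female range and the other 4 above it. The log2 fold change of male over female was 2.25 (SE 0.652, adjusted p = 0.0375). Gpd1 repeated this split, with 512, 2279, 1936, 2309.7, 2661 and 435 CPM in male rats 1, 3, 5, 7, 9 and 11 and 738, 467, 245, 505 and 624 CPM in females, for 1.87 (SE 0.487, adjusted p = 0.0248).

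Gk ran the other way in male sham SAT, with 138 and 95.9 CPM in rats 1 and 11, against 15.5 to 54.3 CPM in the other 4, and Lpin2 showed no such split. Dgat1 differed by 1.29 (adjusted p = 0.0272) and Lpin2 by 0.74 (adjusted p = 0.0459). The other 6 members had positive values from 0.66 for Gk to 2.02 for Agpat2 that did not pass. Of the other pathway genes in SAT, Aqp7, Plin1, Cidea and Cebpa passed, all higher in males, with Cidea, a droplet protein, at 2.49 (SE 0.515, adjusted p = 0.00939). The count of 4 members was 2 with scaling by total counts and 5 without rats 8 and 19. It was 0 without any 1 of male rats 3, 5, 7 or 9, 1 without female rat 8, and 2 without female rat 2 or 12.

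In the male sham libraries with low Dgat2, milk and epithelial genes were high. The 8 markers, which include 3 caseins, summed to 233156 and 199417 CPM in rats 1 and 11, against 1705, 71285, 83497 and 10.1 CPM in rats 3, 5, 7 and 9. Over the group they ran from 10.1 to 233156 CPM in males, with up to 3 of 8 at 0, and from 6143 to 30089 CPM in females, with none at 0. Plin1, the coat protein of adipocyte droplets, was at 239.9 and 166 CPM in male rats 1 and 11, against 1451 to 2443 CPM in the rest. In male PCB 52 SAT the markers summed to 73372, 902, 241997, 2245, 14.1 and 23641 CPM in rats 13, 15, 17, 19, 21 and 23. Rat 19, with the lowest Dgat2 of the group at 130.4 CPM, thus had a low sum, unlike the low sham libraries. In male PCB 52 rats 15 and 21, with the highest Plin1 of that group, the 10 members took 0.808% and 0.848% of counts, against 0.244%, 0.243% and 0.255% in rats 17, 19 and 23, which had the lowest, and 0.443% in rat 13. The part of adipocyte and mammary RNA in these values was not tested.

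**Figure D3:**
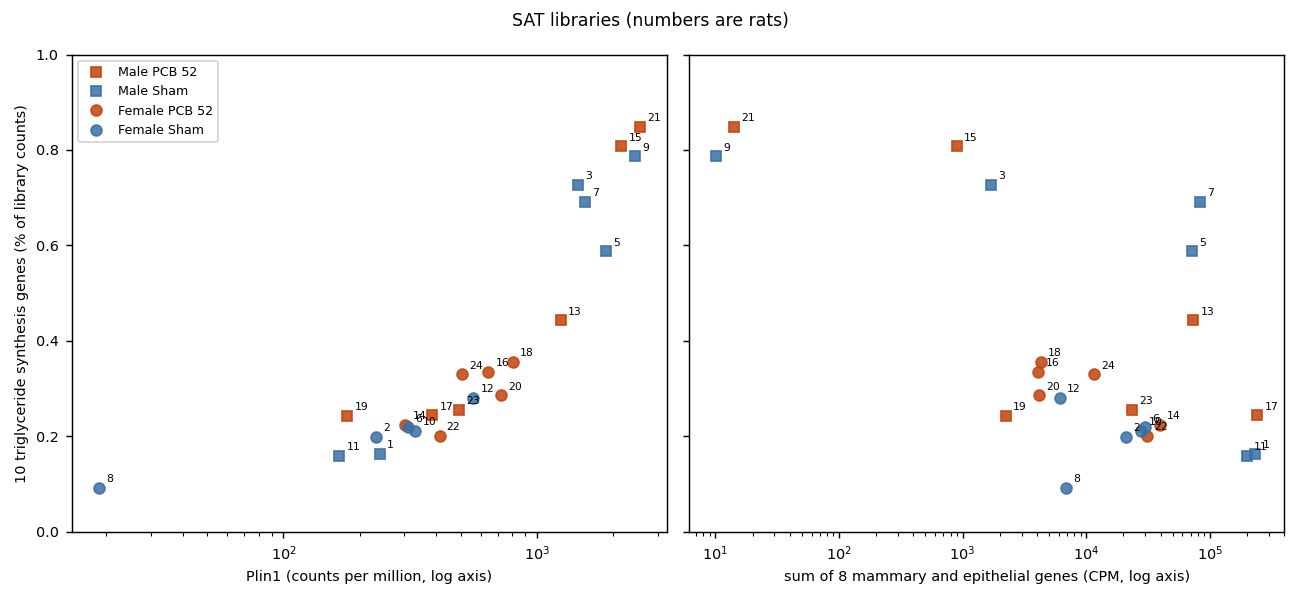
Percent of library counts on the 10 genes in 23 SAT libraries against Plin1 (left) and against the sum of 8 mammary and epithelial genes (right), both on log axes, with squares for males, circles for females, orange for PCB 52, blue for sham and the rat number beside each point. The 7 libraries with the largest shares, from 0.443% up, are male and have Plin1 at 1237 CPM or more.

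Female SAT sham rat 8 set the low end for most members. In that library Gpam was at 2.30, Agpat2 at 1.89 and Lpin1 at 2.16 CPM, against at least 64.5, 52.4 and 61.3 CPM in the rest of its group. Plin1 was at 18.7 CPM there, although the summed adipocyte markers were at 40528 CPM, the highest of the depot. Pck1 at 376 CPM and Dgat1 at 81.4 CPM were near the rest.

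No gene of triglyceride synthesis passed the test for PCB 52. In each of the 6 comparisons of PCB 52 with sham within a sex and depot, 0 of 10 members passed in edgeR, and 0% of all genes tested did. Unadjusted p was under 0.05 for 3 members in male VAT and 4 in female VAT, against 10.7% and 9.57% of all genes. In BAT it was so for 0 members in males and 1 in females, against 9.86% and 3.63%, and in SAT for 0 in males and 2 in females, against 1.44% and 5.12%. Over both sexes 1, 0 and 3 members had such a p in BAT, SAT and VAT, against 10.8%, 4.11% and 10.3% of genes, and in the interaction of sex and PCB 52 0, 0 and 4 did, against 2.41%, 6.51% and 13.8%. DESeq2 called 0 to 149 of all genes and no member in these 6 comparisons, and gave no adjusted p for Gk in male VAT. PCB 52 and sham values of each member overlapped in every sex and depot. A p that misses the threshold does not show that levels were equal, and the median standard error of a gene on the log2 scale was smallest in male BAT, 0.146, and largest in female SAT, 0.331.

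Among the fits over both sexes, Dgat2 in BAT had the lowest adjusted p of any member in edgeR. In male BAT it was at 2106 to 2526 CPM (median 2254) after PCB 52 and 1209 to 2594 CPM (median 1759.9) in sham rats, for a log2 fold change of 0.26 (SE 0.17, adjusted p = 0.579). In female BAT it was at 1515 to 2772 CPM (median 2075) after PCB 52 and 1164 to 1782 CPM (median 1253) in sham rats, for 0.63 (SE 0.201, unadjusted p = 0.00804, adjusted p = 0.999). All 6 PCB 52 libraries of each sex lay above the sham mean. In the fit over both sexes the value was 0.45 (SE 0.129, unadjusted p = 0.00215, adjusted p = 0.21 in edgeR). DESeq2 gave an adjusted p of 0.0481 for the same contrast, and edgeR without female rat 24 gave 0.49 with an adjusted p of 0.109. Muscle genes summed to 434 to 12936 CPM in male BAT after PCB 52 and to 657 to 38154 CPM in sham rats, where 5 of 6 libraries had 16311 CPM or more. Plin1 was at 1730.4 to 2230.4 CPM in male BAT after PCB 52 and 1216 to 1823 CPM in sham rats. In female BAT muscle genes summed to 465 to 42928 CPM after PCB 52 and 298 to 21084 CPM in sham rats, and Plin1 was at 1234 to 2418 CPM after PCB 52 and 1289 to 2549.8 CPM in sham rats. Their part in the Dgat2 values was not tested. The other 9 members in BAT of both sexes lay between -0.28 for Lpin2 and 0.10 for Gpam.

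In BAT of female PCB 52 rat 24, Gk was at 29.3, Gpd1 at 2273, Pck1 at 1832 and Agpat2 at 230.3 CPM, each below all other libraries of BAT. Dgat2 in the same library was at 1515 CPM, above 5 of the 6 female sham libraries. Summed brown markers were at 196 CPM and muscle genes at 42928 CPM there. Without it, the log2 fold change of Gk in female BAT was -0.05, against -0.30 with it, and neither passed.

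**Figure D4:**
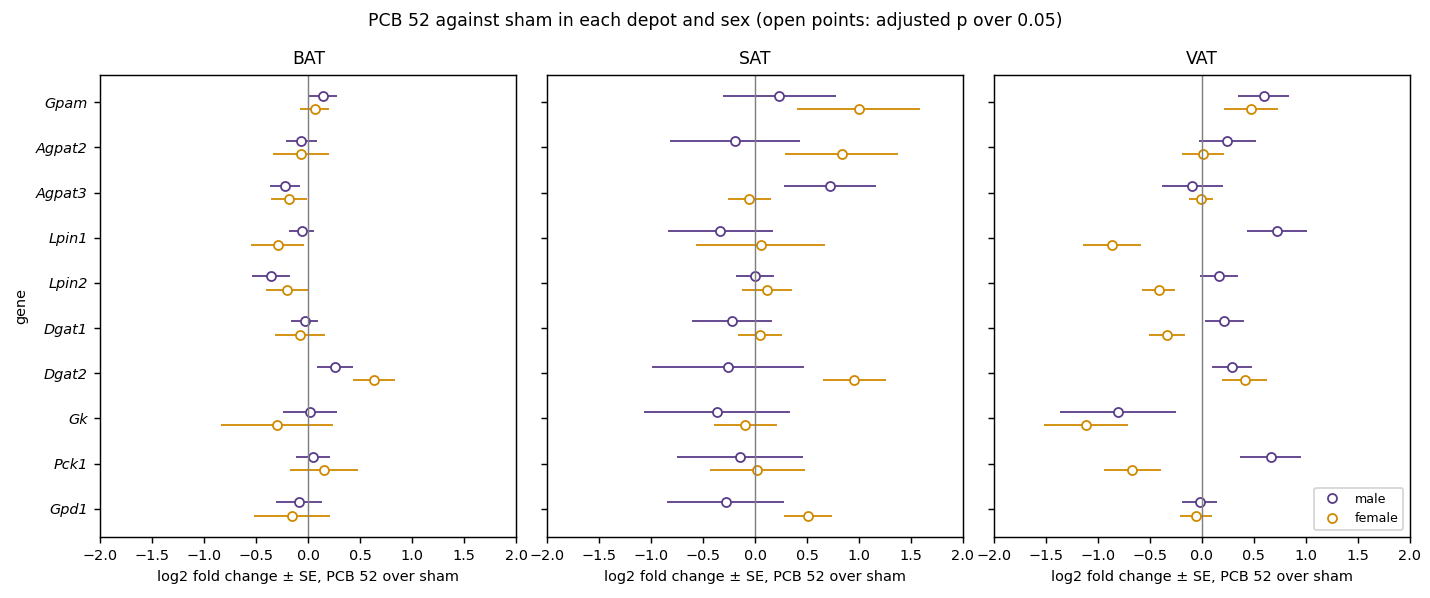
Log2 fold changes with standard errors of PCB 52 over sham for the 10 genes in each depot, males above females in each row. All points are open because none passed, and in VAT the points for Lpin1 and Pck1 lie right of 0 in males and left of 0 in females.

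In VAT, Lpin1, Pck1, Lpin2 and Dgat1 had positive values in males and negative ones in females, none of which passed. Male VAT held 384, 348, 491 and 519 CPM of Lpin1 after PCB 52 in rats 15, 17, 19 and 23 and 102 to 412 CPM in sham rats, for 0.72 (SE 0.29, unadjusted p = 0.0297, adjusted p = 0.419). Female VAT held 281 to 766 CPM (median 453) after PCB 52 and 520.4 to 1249 CPM (median 825) in sham rats, for -0.86 (SE 0.282, unadjusted p = 0.00833, adjusted p = 0.479). All 4 male PCB 52 libraries lay above the male sham mean and all 6 female ones below the female sham mean.

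Pck1 in male VAT was at 3151, 2552, 3711 and 4457 CPM after PCB 52 and 1116 to 3391 CPM in sham rats, for 0.66 (SE 0.292, adjusted p = 0.453). In female VAT it was at 2817 to 6482 CPM (median 3941) after PCB 52 and 3703 to 10903 CPM (median 6498) in sham rats, for -0.67 (SE 0.274, adjusted p = 0.506). The difference between the sexes in the response, male minus female, was 1.58 for Lpin1 (SE 0.43, adjusted p = 0.222) and 1.33 for Pck1 (SE 0.42, adjusted p = 0.228). No member passed in that interaction in edgeR, with 4 at an unadjusted p under 0.05, as were 13.8% of all genes. The other 2 were Lpin2, at 0.17 in males (SE 0.182) and -0.41 in females (SE 0.158), and Dgat1, at 0.22 (SE 0.189) and -0.34 (SE 0.173). For Dgat1, as for Lpin1 and Pck1, all 4 male PCB 52 libraries in the fits lay above the male sham mean. All 6 female ones lay below the female sham mean. For Lpin2, 2 of the 4 male libraries lay above the male sham mean. Male PCB 52 rat 13, left out of the fits, had Pck1 at 1443 CPM, below the sham mean of 2187 CPM. Its Dgat1, at 455 CPM, also lay below the mean of 479 CPM, and its Lpin1, at 282 CPM, above the mean of 265 CPM. The share of all genes with such placing against a sham mean was not counted, here or in the other groups. Female sham rats 4 and 8, with Ucp1, had the highest Dgat1 of their group, at 928 and 719 CPM. In the interaction, DESeq2 called 1 member, Lpin1, at an adjusted p of 0.045, and so did edgeR without male sham rat 1.

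Male and female medians of Lpin1 lay closer together after PCB 52 than in sham rats. Median Lpin1 was 438 CPM in male and 453 CPM in female VAT after PCB 52, against 259.9 CPM in male and 825 CPM in female VAT of sham rats. The sham libraries enter both the sex comparison and the PCB 52 comparisons, which are therefore not separate evidence. Female VAT sham rats 4 and 8, with Ucp1, had Lpin1 at 1249 and 1005 CPM, and rat 12, with Ucp1 at 0.292 CPM, had 1236. Without the libraries that stood apart, the interaction was 1.20 for Lpin1 (adjusted p = 0.468) and 0.82 for Pck1 (adjusted p = 0.505).

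**Figure D5:**
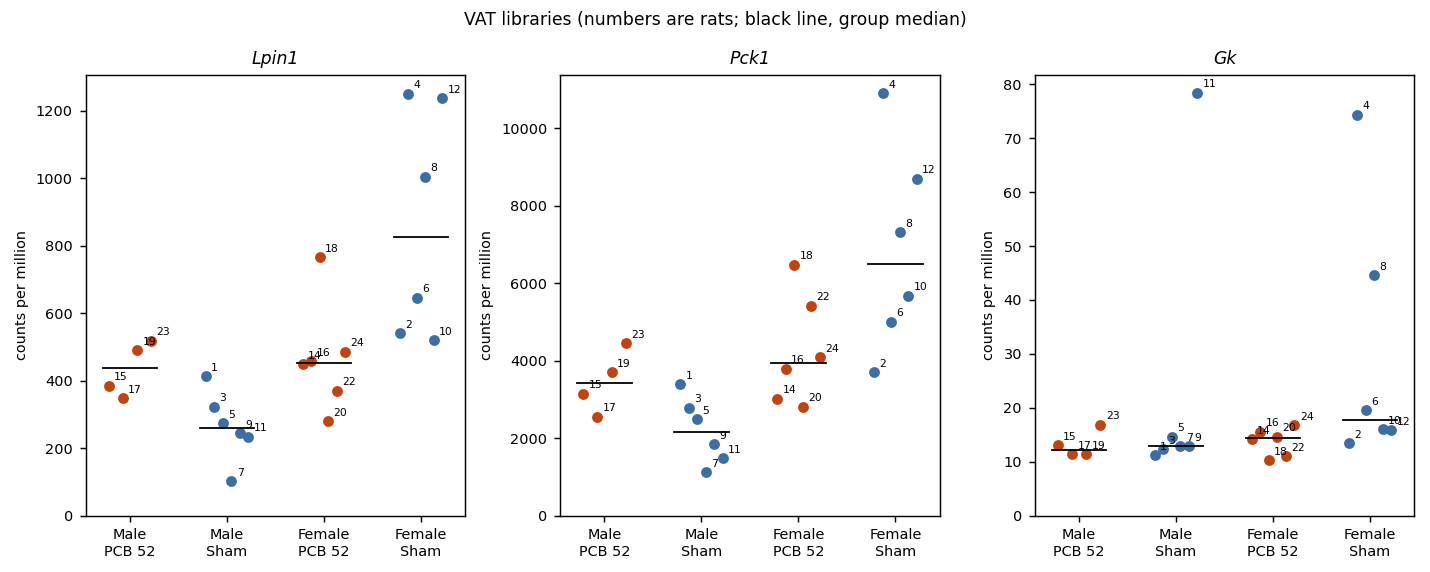
CPM of Lpin1, Pck1 and Gk in VAT by sex and treatment, each point 1 library with its rat number and black lines for group medians. Lpin1 and Pck1 are higher in female sham than in male sham rats without overlap, and Gk exceeds 40 CPM only in male sham rat 11 and female sham rats 4 and 8.

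Gpam in VAT had the same sign in both sexes. It was at 405, 494, 451 and 378 CPM in male VAT after PCB 52 and 128 to 414 CPM in sham rats, for 0.59 (SE 0.241, adjusted p = 0.421). The low end was male sham rat 7, where the other sham libraries had at least 272 CPM. That library was also the lowest of its group for Lpin1 and Pck1. In female VAT Gpam was at 357 to 1094 CPM (median 693) after PCB 52 and 358 to 823 CPM (median 449) in sham rats, for 0.47 (SE 0.262, adjusted p = 0.571). Over both sexes the value was 0.54 (SE 0.191, unadjusted p = 0.0101, adjusted p = 0.309). Msln was at 275 to 392 CPM in male VAT after PCB 52 and 4.04 to 289 CPM in sham rats, and its part in the male values was not tested.

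Gk in VAT had negative values in both sexes that rested on 1 sham library in males and 2 in females. It was at 11.4 to 16.9 CPM in the 4 male VAT libraries after PCB 52, against 11.2 to 78.4 CPM in sham rats, and at 10.3 to 16.8 CPM in female VAT after PCB 52, against 13.4 to 74.3 CPM in sham rats. The log2 fold change was -0.81 in males and 0.02 without sham rat 11. In females it was -1.12 (SE 0.404, adjusted p = 0.479), -0.59 without sham rat 4, and -0.17 without rats 4 and 8. Summed brown markers ran from 34.4 to 84.3 CPM after PCB 52 and 49.1 to 566 CPM in sham rats of that depot and sex.

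In female SAT, Dgat2 was at 360.2 to 827 CPM (median 554) after PCB 52 and at 461, 329, 80.9, 225 and 267 CPM in sham rats, for 0.95 (SE 0.302, unadjusted p = 0.00846, adjusted p = 0.768). All 6 PCB 52 libraries lay above the sham mean, and 4 above the highest sham library. Without sham rat 8 the value was 0.82. Gpam in the same tissue was at 1.00 (SE 0.592, adjusted p = 0.768) and at 0.71 without rat 8. Mammary and epithelial markers summed to 4097 to 39408 CPM after PCB 52 and 6143 to 30089 CPM in sham rats. Plin1 had a median of 573 CPM after PCB 52 and 309.6 CPM in sham rats, and macrophage markers summed to 619 to 1307 CPM after PCB 52 and 196 to 855 CPM in sham rats. The part of these in the values was not tested.

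In male SAT the spread was wide. Dgat2 was at 130.4 to 2227 CPM (median 611) after PCB 52 and 151 to 1897 CPM (median 1432) in sham rats, with a log2 fold change of -0.26 (SE 0.733). Agpat3 had the largest value, 0.72 (SE 0.441), which rested on rat 19 at 968 CPM, where the other 5 libraries had 142 to 335 CPM, and which was 0.10 without that library. In edgeR, 0 genes of the 3 lists of other pathway genes passed for PCB 52 in any sex, depot or interaction, with 0 to 3 of a list at an unadjusted p under 0.05. The highest counts were 3 of 7 regulators in male BAT, against 9.86% of all genes, and 3 of 13 other enzymes in VAT over both sexes, against 10.3%. DESeq2 called 2 genes of these lists, named here after their values were seen. Ctdnep1, the phosphatase that activates lipins, was at -0.40 (SE 0.0885, adjusted p = 0.434) in male BAT in edgeR, against an adjusted p of 0.0166 in DESeq2. Ppargc1a was at -1.21 (SE 0.339, adjusted p = 0.196) in BAT of both sexes, against 0.0345 in DESeq2. It is one of the brown markers, whose sum was lowest in female BAT PCB 52 rat 24, at 196 CPM. Muscle genes summed to 434 to 12936 CPM in male BAT after PCB 52 and 657 to 38154 CPM in sham rats. The part of tissue makeup in these values was not tested.

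Across the 69 libraries, deviations of log2 CPM from the group means were compared between genes as a description. These points share library, depth and tissue makeup. Among members, r was highest for Dgat1 with Gpd1, at 0.86, and for Lpin1 with Agpat2, at 0.81, and lowest for Dgat2 with Gk, at -0.28. Without the libraries that stood apart, 62 libraries gave 0.89 for Agpat2 with Dgat2 and -0.49 for Dgat2 with Gk. Gk and Lpin2 each had their highest r with the other, 0.42.

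Of 10307 genes with a mean of at least 5 CPM, the one most like Gpam was Acaca, the acetyl-CoA carboxylase of fatty acid synthesis, at r = 0.91. Dgat2 was most like Aqp7, the adipocyte glycerol channel, at 0.90, and Pck1 was most like Pde3b, the phosphodiesterase through which insulin lowers cAMP in adipocytes, at 0.91. Gpd1 was most like Aifm2 at 0.93, Agpat2 like Asns at 0.93, Dgat1 like Acad10 at 0.92, Lpin1 like Pfkfb3 at 0.91, Gk like Camsap3 at 0.89, Agpat3 like Prxl2a at 0.83 and Lpin2 like Rreb1 at 0.68. In 62 libraries the first place stayed with Pde3b for Pck1 and Acad10 for Dgat1, and passed to Rbp4 for Agpat2 at 0.95 and to Fitm2, a droplet-forming protein, for Gpd1 at 0.93.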

How the data were processed

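The authors deposited read counts per gene for 70 libraries in 6 tables, 1 for each sex and depot, with 15319 genes named by NCBI gene number. Tables were used as deposited. The female VAT table was listed as estimated counts, because the authors deposited 5 spreadsheet lines that are not whole numbers under its genes. Those lines were left out, all gene values are whole, and the table was fitted like the others. Per the submitters' processing notes, FastQC, HISAT2 and build rn6 were used, while no counting program or strand setting is given. Per the labels' protocols, RNA with an integrity number below 8 was excluded.

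Gene numbers were matched to symbols through RefSeq for 15230 genes. CPM values are counts over library totals. All tests used the robust quasi-likelihood fit of edgeR 4.0.16, run in R 4.3.3 after TMM scaling and an expression filter, and p-values were adjusted by Benjamini-Hochberg over every gene tested, with 0.05 as the limit. Exposure was tested in each table alone, and over both sexes of a depot together with the interaction. Sexes were compared within a depot's fit and depots within the 3 sham groups of a sex. Male VAT PCB 52 rat 13 was left out of all main fits, which drew on 69 libraries, and put back in an alternative. Other alternatives were RLE scaling, total counts, no filter, DESeq2 1.42.0, each library left out and the rat number as a block. The fit was also run on counts simulated with known fold changes. Those counts held no outlying libraries or mixed tissue, so they do not show how the fit behaves with such libraries. Among 170 pairs of libraries within groups, 0 were identical. Named genes were the 10 members and, from 3 lists of other pathway genes, up to 6 per comparison past the threshold by adjusted p. Members and lists were chosen with earlier results of these data known.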

Additional observations from a re-analysis of the deposited data

Results flagged for a closer look

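In 12 of 120 groups of 1 gene, sex, depot and treatment, the highest or lowest library lay farther from the nearest other library, as a share of the group's range, than a test for single outlying values allows at 95%. Chance flags about 1 in 20 groups, and libraries appear more than once because their genes are not independent.

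Female BAT PCB 52 rat 24 was the lowest of its group for every member, and it was flagged for 4 of them. Gk was at 29.3 CPM there, against 551 to 821 CPM in the other 5 libraries, and Pck1 was at 1832 CPM, against 6061 to 8551 CPM. Agpat2 was at 230.3 CPM, against 673 to 762 CPM, and Dgat1 at 259.1 CPM, against 641 to 728 CPM. The low brown and high muscle markers of this library are given with the results.

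The male sham libraries numbered 11 were the highest for Agpat3 in BAT, at 454 CPM against 272 to 330.04 CPM, and in VAT, at 818 CPM against 235 to 413 CPM. The VAT library was also the highest for Gk, at 78.4 CPM against 11.2 to 14.6 CPM.

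Agpat3 in male SAT was at 968 CPM in PCB 52 rat 19, against 142 to 335 CPM in the rest. Lpin2 in female SAT was at 21.1 CPM in sham rat 8, against 84.9 to 105 CPM, and in male BAT at 134 CPM in PCB 52 rat 23, against 100.1 to 110.3 CPM. Dgat2 in female BAT was at 1782 CPM in sham rat 2, against 1164 to 1319 CPM. Gpd1 in female VAT was at 6061 CPM in sham rat 4, one of the libraries with Ucp1, against 3656 to 4243 CPM.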

How the results depend on the processing

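No member's called value changed sign under any alternative run. DESeq2 called 1 member for PCB 52 over both sexes in BAT, 1 in the VAT interaction and 4 for SAT over VAT in males, against 0, 0 and 2 in edgeR. Scaling by total counts gave 2 members for male over female SAT, against 4, and 4 for BAT over VAT in males, against 7. Without the libraries that stood apart, 4 members passed for male over female VAT, against 7. The cause was not tested. Leaving out each library in turn gave 0 to 6 members for male over female SAT, 4 to 7 for VAT, 0 to 1 for the VAT interaction, 8 to 9 for BAT over SAT in males, 10 in females, 5 to 7 for BAT over VAT in males, 2 to 3 in females, 0 to 4 for SAT over VAT in males and 9 in females, and 0 elsewhere.

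Of all genes, DESeq2 called 37 in female VAT, 7 in male BAT, 149 in male VAT, 82 and 84 over both sexes in BAT and VAT and 67 in the VAT interaction, where edgeR called 0. For male over female it called 43 in BAT, against 8, and 1495 in SAT, against 975. Without the libraries that stood apart, edgeR called 1 gene for PCB 52 over both sexes in BAT, 1525 for male over female VAT, against 2440, and 5240 for BAT over VAT in females, against 3011. Leaving out 1 library gave 0 to 1 in male BAT, 0 to 190 in male VAT, 0 to 11 and 0 to 100 over both sexes in BAT and VAT, 0 to 109 in the VAT interaction, 6 to 13, 433 to 1396 and 1975 to 2827 for male over female BAT, SAT and VAT, and 2307 to 5524 for BAT over VAT in females.

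Depots share rat numbers, but the labels do not say that a number is 1 rat. Same-numbered sham libraries of different depots had a median correlation of deviations of 0.10 over 34 pairs, and 17 exceeded 0.1. The median was -0.03 for 170 pairs whose numbers differed, of which 33 exceeded 0.1. These correlations cannot settle the pairing, because libraries of 1 rat need not correlate over every pair of depots. The numbers may mark the same rats, but the main fits took the libraries as separate. Their p-values between depots thus leave out any such pairing. With the number as a replicate block, counts of members stayed at 9, 7 and 2 in males and 10, 2 and 9 in females for BAT over SAT, BAT over VAT and SAT over VAT.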
